A study of Rattus norvegicus with 4 samples.

Results

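The genes described are those of the cytosolic and the mitochondrial ribosomal proteins, followed in retinal neurospheres that were grown with or without medium conditioned by endothelial cells. They were chosen by symbol alone: every gene whose probe set carries a single annotated symbol of the form Rpl, Rps, Rplp or Rpsa (cytosolic) or Mrpl or Mrps (mitochondrial), without the Rps6k kinases. This gave 123 genes, 50 cytosolic and 73 mitochondrial, of 14218 genes with a single symbol on the array. Each gene was read from the probe set with the highest mean over the 4 arrays, and 119 of the 123 lay above the dim limit of 4.77 log2 and were tested, 46 cytosolic and 73 mitochondrial. The 4 left out were Rpl3l, Rpl30, Rpl39l1 and Rps4x-ps1. Among the 46 cytosolic genes tested, Rpl37-ps2 is annotated as a transcribed pseudogene and is part of the counts and medians below.

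Neurospheres are floating clusters of dividing cells grown from dissociated tissue. Here they came from the retinas of pooled Sprague Dawley rat embryos at embryonic day 18. The group called EGF below was grown with epidermal growth factor (EGF) alone, and the group called ECCM with EGF plus endothelial cell conditioned medium, so both groups received EGF. The labels give no source for the endothelial cells. Each group had 2 arrays, numbered 1 and 2 and labelled as biological replicates. Another batch of pooled embryos gave the replicate of both conditions, but no label ties a number to a pool, so the 4 arrays rest on few pools of animals.

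A ribosome has a small subunit, which decodes the messenger RNA, and a large subunit, which joins the amino acids. In the counts below, genes are assigned to a subunit by the s or l of their symbol, not by the known place of the protein. The cytosolic ribosome is made by nearly all growing cells in large amounts, and the messenger RNAs of its proteins typically begin with a C followed by a run of pyrimidines, the 5' terminal oligopyrimidine or TOP motif, through which growth factor signalling by way of mTORC1 controls their translation. That control acts on ribosome loading more than on the amount of messenger RNA, and an array measures only the amount. The mitochondrial ribosome is assembled from a separate set of proteins, encoded in the nucleus and imported, and makes the few respiratory chain subunits that the mitochondrial genome encodes.

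The transcript starts of 9 members are shown because they set the TOP motif beside the genes that later results turn on. Each line has 10 bases before the annotated RefSeq start (assembly GRCr8) and 20 from the start on, 5' to 3' on the gene's strand, with the C and its pyrimidine run in capitals where one begins within 5 bases of the start. Rpl19, Rps15, Rpl22 and Rplp0 begin on the C itself, and Rps28 and Mrps18b have a run close by. Rpl18, Mrpl22 and Mrps2 have none that begins within 5 bases of the start.
Rpl19: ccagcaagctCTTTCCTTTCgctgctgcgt
Rps15: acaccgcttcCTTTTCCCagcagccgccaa
Rpl22: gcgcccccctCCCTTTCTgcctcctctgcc
Rplp0: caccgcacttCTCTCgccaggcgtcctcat
Rps28: ccctgctcacgtgaCTCCTCTCCgctagat
Rpl18: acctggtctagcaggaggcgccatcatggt
Mrps18b: agtcgttCTTCCggcaggccgtacgttgga
Mrpl22: cggcgtttgaactccgaggcttccgtaggg
Mrps2: gcggccccgtgcgcttgacccgggaggcgc

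On the plus strand, the window of Rpl19 lies at chr10:83519054-83519083, that of Rpl22 at chr5:168117951-168117980 and that of Rpl18 at chr1:105325260-105325289. Also on the plus strand are Mrpl22 at chr10:42845900-42845929, Mrps18b at chr20:2842996-2843025 and Mrps2 at chr3:32201067-32201096. On the minus strand are Rps15 at chr7:10068096-10068125, Rplp0 at chr12:46718371-46718400 and Rps28 at chr7:15311314-15311343. One start window could be assigned to 41 of the 50 cytosolic and 57 of the 73 mitochondrial genes. A C at the annotated start followed by at least 4 pyrimidines stood in 11 of the 41 cytosolic windows (26.8%), 2 of the 57 mitochondrial windows (3.51%) and 881 of the 33469 windows in the table (2.63%). Allowing the C to lie up to 5 bases on either side, the counts were 20 cytosolic (48.8%), 14 mitochondrial (24.6%) and 5704 in all (17.0%). A second motif, CCGGAAG on either strand, which is a core of the sites that ETS family transcription factors bind, was searched over the whole window of 300 bases. It stood in 10 cytosolic windows (24.4%), 19 mitochondrial windows (33.3%) and 2927 in all (8.75%). Its reverse complement CTTCCGG begins with a C and 4 pyrimidines, so the 2 motifs overlap, as they do at the start of Mrps18b. A match describes the letters in the window and is not a mapped start or a bound site.

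The deposited arrays were not level with one another. Their median signals over 31099 probe sets were 6.03 (EGF 1), 6.25 (EGF 2), 6.84 (ECCM 1) and 6.56 log2 (ECCM 2), so the direction of a small difference depends on how the arrays are scaled. The values below are quantile normalized, which gives each array the same distribution, and the same fit was run on the deposited values and on arrays centred on their medians. A gene is said to have risen or fallen only if its adjusted p was under 0.05 in the same direction under all 3 scalings (limma, Benjamini-Hochberg over 11492 genes). Differences are ECCM minus EGF on the log2 scale. Marker genes of several cell types also differed between the groups: of the photoreceptor markers 6 of 8 fell and of the retinal neuron markers 4 of 7 fell, while 4 of 9 retinal progenitor markers, 8 of 9 mesenchymal, 5 of 9 microglial, 2 of 5 endothelial and 2 of 7 lens markers rose. Of 2 erythroid markers tested none rose or fell. The summed linear signal of the photoreceptor markers was 17139 to 18931 in the EGF arrays and 9776 to 10164 in the ECCM arrays, and that of the mesenchymal markers was 765 to 900.3 and 2308 to 2376. The progenitor sum was 21567 to 23657 and 28605 to 29329, the neuron sum 8409 to 8433 and 5286 to 5409, the microglial sum 519 to 535 and 805 to 889, and the endothelial sum 4158 to 4367 and 5661 to 5737. The endothelial sum was mostly the signal of 1 gene, Kdr, which did not rise under all 3 scalings. Kdr measured 11.95 and 12.03 log2 in EGF 1 and 2 and 12.41 and 12.39 log2 in ECCM 1 and 2. The lens sum was 427 to 437 and 715 to 732, and the erythroid sum 221 to 243 and 157 to 213. Defining markers that lay under the dim limit were Pecam1, Tek, Emcn and Tie1 (endothelial), Cd74, Itgam and C1qb (microglial) and Lum, Dcn and Thy1 (mesenchymal). Cryba1, Cryba2, Crybb2, Mip and Lim2 (lens) and Alas2 and Ahsp (erythroid) also lay under it. As quantile normalized, 2 of the 7 lens markers tested were called higher and 1 lower, Cryga at -1.03. The signal gap between the 3' and 5' actin control probe sets, a sign of RNA quality, was 1.89 and 2.03 log2 in EGF 1 and 2 and 1.59 and 1.43 log2 in ECCM 1 and 2. The part of the cell types and of RNA quality in the ribosomal protein differences was not tested, and in these bulk samples fewer cells of a type and less RNA per cell cannot be told apart.

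No ribosomal protein gene rose or fell with endothelial cell conditioned medium: 0 of 46 cytosolic and 0 of 73 mitochondrial genes passed the threshold under all 3 scalings in either direction (limma), against 9.12% of all genes tested that rose and 1.78% that fell. Of 88 other genes with a signal between the quartiles of the cytosolic set, 2.27% rose and 1.14% fell. Of 2070 other genes between the quartiles of the mitochondrial set, 7.15% rose and 2.22% fell. With an unadjusted p under 0.05 in place of the adjusted one, the counts of members were again 0 and 0, against 1353 genes of the whole array higher and 269 lower. This second count adds little. As deposited all tested members were positive, the lowest at 0.19 (cytosolic) and 0.04 (mitochondrial), so none could fall at any p, adjusted or not. Median-centred, only 1 cytosolic and 0 mitochondrial genes were higher at that unadjusted p, and none at the adjusted p. The adjusted and the unadjusted counts of 0 therefore both depend on the rule of 3 scalings. The differences were small in both sets. On quantile normalized values, no cytosolic gene and 1 mitochondrial gene (Mrpl22) of those tested differed by 0.5 log2 or more, against 19.2% of all genes, and none by 1 log2 or more, against 384 genes in all. The 4 dim cytosolic genes, which were not tested, gave -0.75 (Rpl39l1), -0.43 (Rpl3l), -0.16 (Rps4x-ps1) and -0.09 (Rpl30). The 95% interval of the difference lay inside -0.5 to 0.5 log2 for 44 of 46 cytosolic and 65 of 73 mitochondrial genes, and for 5768 of the 11492 genes.

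**Figure D1:**
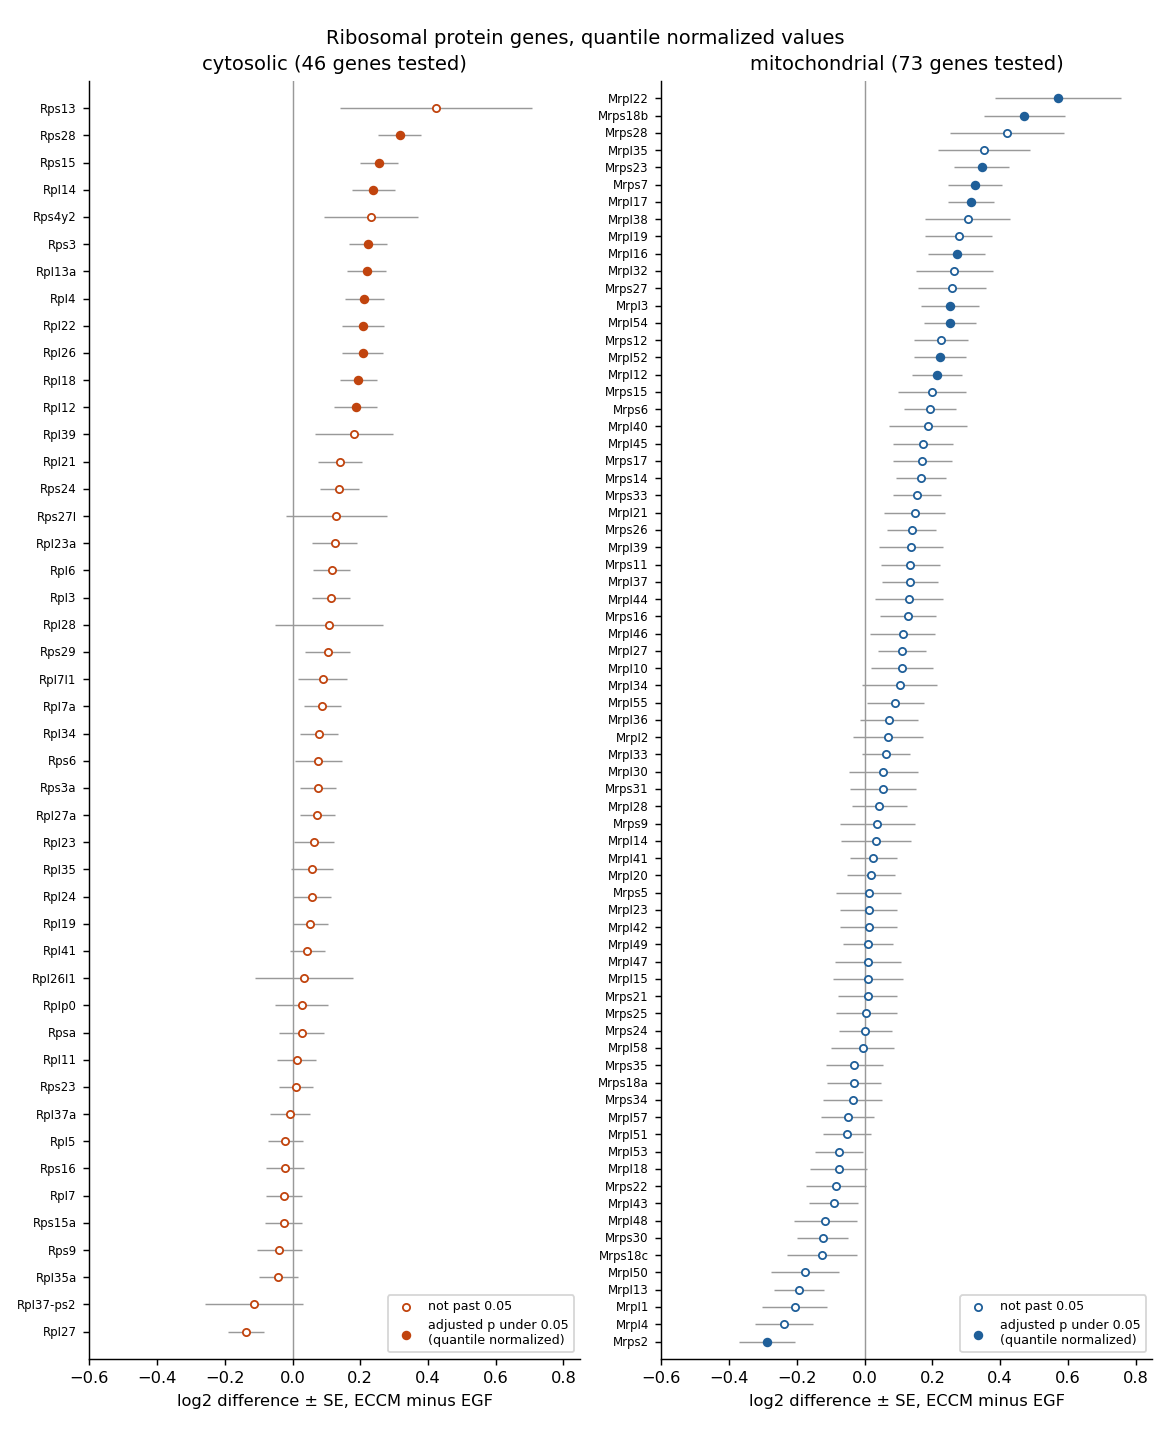
The log2 difference (ECCM minus EGF, horizontal) with its standard error for each of the 46 cytosolic (left) and 73 mitochondrial (right) ribosomal protein genes tested, on quantile normalized values. Filled points had an adjusted p under 0.05 on these values, and all cytosolic differences lie between -0.14 and 0.42 and all mitochondrial ones between -0.29 and 0.57.

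Scaling set the sign of both sets. The median difference of the cytosolic genes was 0.08 log2 quantile normalized, 0.40 as deposited and -0.17 median-centred, and that of the mitochondrial genes was 0.07, 0.42 and -0.15. The median over all genes tested moved with them, at 0.00, 0.40 and -0.16. Set beside all genes, neither set's median stood more than 0.1 log2 away under any of the 3 scalings. Other genes between the quartiles of the cytosolic signal had lower medians than the cytosolic set, -0.03 quantile normalized and 0.28 as deposited. Those between the quartiles of the mitochondrial signal had medians of -7.85e-04 and 0.32, also lower than that set's. As deposited, 33 cytosolic and 36 mitochondrial genes were called higher and none lower, where 40.4% of all genes were called higher. Median-centred, none was called higher, where 10.2% of all genes were, and 8 cytosolic and 17 mitochondrial genes were called lower, where 32.2% of all genes were. As deposited, 1 member differed by 1 log2 or more, the dim Rps13 at 1.23, against 1336 genes in all (11.6%).

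**Figure D2:**
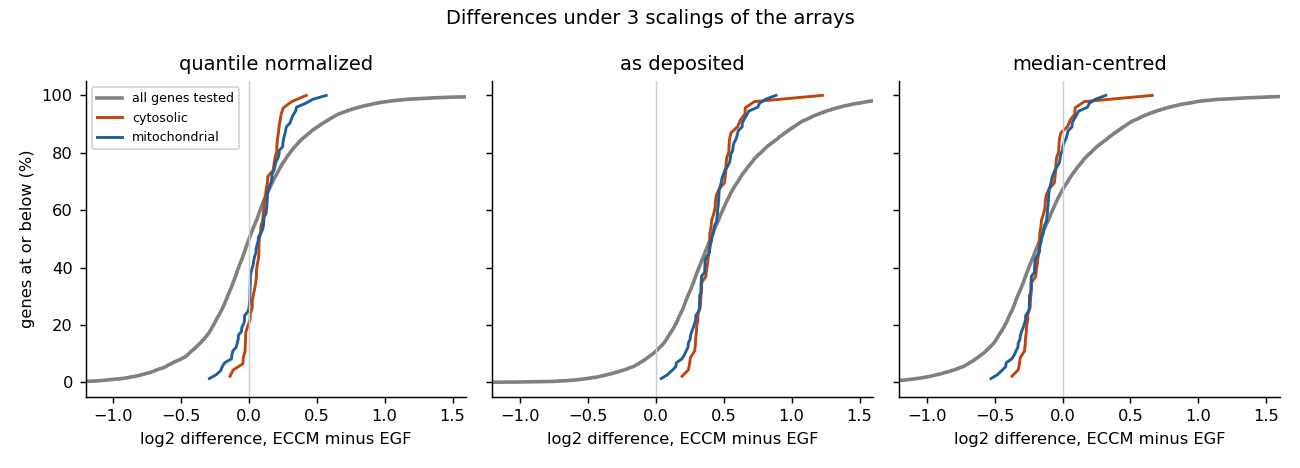
Cumulative share of genes (percent, vertical) by log2 difference (ECCM minus EGF, horizontal) under the 3 scalings, for all genes tested (grey), the cytosolic set and the mitochondrial set. The curves of both sets cross their midpoint near that of all genes in each panel (cytosolic medians 0.08, 0.40 and -0.17) and are steeper than it, since the differences spread less.

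On quantile normalized values alone, 10 of 46 cytosolic genes were called higher and none lower, and 10 of 73 mitochondrial genes were called higher and 1 lower, where 16.5% of all genes were called higher and 14.6% lower. As shares this was 21.7% of the cytosolic and 13.7% of the mitochondrial genes called higher. All 4 arrays stood in group order, with no overlap, for 28 cytosolic genes higher and 3 lower and for 32 mitochondrial genes higher and 11 lower, where 33.6% of all genes were higher without overlap and 32.6% lower. These calls changed with the settings. Without the intensity trend in limma's spread, 0 cytosolic and 1 mitochondrial gene (Mrps7) were called higher. Without EGF replicate 1 they numbered 4 and 6, without ECCM replicate 2 they numbered 1 (Rps15) and 0, and without EGF replicate 2 or ECCM replicate 1 both counts were 0. Fits on 3 arrays also called fewer of all genes higher, 557 to 1061 in place of 1891, and left the medians of both sets between 0.07 and 0.11 log2.

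Among the proteins of the cytosolic small subunit, Rps28, which sits at the messenger RNA exit, had the lowest adjusted p of all members as quantile normalized. Its quantile normalized signal was 12.29 and 12.16 log2 in EGF 1 and 2 and 12.57 and 12.51 log2 in ECCM 1 and 2. Both ECCM arrays lay above both EGF arrays, by 0.32 ± 0.06 log2 (SE, n = 2 per group; 1.25-fold; limma adjusted p = 0.0037), but median-centred the difference was 0.06 (adjusted p = 0.69). Rps15, a protein of the subunit head, measured 12.72 and 12.69 log2 in the EGF arrays against 12.97 and 12.95 log2 in the ECCM arrays. The groups did not overlap and differed by 0.26 ± 0.06 log2 (SE, n = 2; limma adjusted p = 0.0050), and the sign turned to -0.01 median-centred. Rps3, which lines the messenger RNA entry channel, gave 12.66 and 12.67 log2 against 12.86 and 12.92 log2, again without overlap, a difference of 0.22 ± 0.06 (SE, n = 2; limma adjusted p = 0.0116) that was -0.03 median-centred. Over the 15 small subunit genes tested, 12 differences were positive and the median was 0.10 log2 as quantile normalized.

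Other proteins of this subunit moved less. Rps6, the protein that S6 kinase phosphorylates, measured 13.15 and 13.23 log2 in the EGF arrays against 13.17 and 13.36 log2 in the ECCM arrays, so that the groups overlapped (0.08 ± 0.07, SE). Rps23, part of the decoding centre, gave 13.49 and 13.53 log2 against 13.52 in both ECCM arrays (0.01 ± 0.05), and median-centred it was called lower, at -0.33 (limma adjusted p = 0.0198). Rpsa, which is also known as a laminin receptor, differed by 0.03 ± 0.07 in its brightest probe set and by 0.27 and 0.22 in its other 2, so its probe sets did not give one size. These other 2 were also bright, at 11.38 and 12.26 log2. In a limma fit over probe sets both were called higher as quantile normalized, and neither under all 3 scalings. Rps13 had the largest positive difference of the cytosolic set but the dimmest probe set tested, with a mean deposited signal of 4.97 log2 beside the limit of 4.77. It gave 4.97 and 4.57 log2 in the EGF arrays against 5.25 and 5.13 log2 in the ECCM arrays, 0.42 ± 0.28 (SE, n = 2; limma adjusted p = 0.28).

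In the cytosolic large subunit, 7 of 31 genes tested were called higher as quantile normalized: Rpl4, Rpl12, Rpl13a, Rpl14, Rpl18, Rpl22 and Rpl26, with differences of 0.19 to 0.24 log2. This was 22.6% of them, beside 16.5% of all genes called higher. Rpl4, whose long loop reaches the peptide exit tunnel, measured 12.33 and 12.38 log2 in the EGF arrays against 12.57 in both ECCM arrays. Rpl22, which also binds other RNAs, measured 12.49 and 12.48 log2 against 12.76 and 12.63. Rpl26, known for binding p53 messenger RNA, measured 13.44 and 13.28 log2 against 13.55 and 13.58. In these 3 genes each ECCM array lay above each EGF array, with limma adjusted p of 0.0170, 0.0283 and 0.0273. Median-centred, the sign of all 7 turned, to between -0.10 and -0.02 log2. The other probe set of Rpl14, under the dim limit, gave -0.79, and the mean of both gave -0.28 (limma adjusted p = 0.11).

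At the other end, Rpl27 had the lowest difference of the 46 cytosolic genes tested. It measured 13.25 and 13.26 log2 in EGF 1 and 2 and 13.12 in both ECCM arrays, without overlap, -0.14 ± 0.05 (SE, n = 2; limma adjusted p = 0.0705). Median-centred it was called lower, at -0.37 (limma adjusted p = 0.0102), and as deposited it was positive at 0.19. Rpl5 and Rpl11, which bind the 5S ribosomal RNA and together restrain Mdm2, differed by -0.02 ± 0.05 and 0.01 ± 0.06. Rplp0, the stalk protein that is often used as a reference gene, measured 12.83 and 12.94 log2 in the EGF arrays against 13.03 and 12.79 log2 in the ECCM arrays. The ECCM arrays enclosed the EGF arrays, with a difference of 0.03 ± 0.08, but median-centred it was called lower, at -0.26 (limma adjusted p = 0.0432). Rpl37a had the smallest difference of the cytosolic set, -0.01 ± 0.06.

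Some cytosolic proteins have paralogs, copies that can replace the main form in certain tissues. Rpl26l1 differed by 0.03 ± 0.14 beside 0.21 for Rpl26, Rpl7l1 by 0.09 ± 0.07 beside -0.03 for Rpl7, and Rps27l, a p53 target, by 0.13 ± 0.15. Rps4y2 differed by 0.23 ± 0.14 (limma adjusted p = 0.23). Rpl3l, the form of striated muscle, and Rpl39l1 were under the dim limit, while Rpl3 gave 0.11 ± 0.06, Rpl39 0.18 ± 0.12 and Rpl41 0.04 ± 0.05. Of the paralog and main forms together, 10 were tested and 2 were called higher as quantile normalized (Rpl22 and Rpl26). This was 20% of them, near the 16.5% of all genes called higher. Near-identical copies and pseudogenes can share probes with a member, so these single values are uncertain.

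The mitochondrial set varied more from gene to gene, with a standard deviation of the difference over genes of 0.17 log2 beside 0.11 in the cytosolic set and 0.43 over all genes. Mrpl22, a large subunit protein at the exit tunnel, had the largest difference. It measured 10.53 and 9.74 log2 in EGF 1 and 2 and 10.67 and 10.74 log2 in ECCM 1 and 2. The groups did not overlap, but EGF 2 lay 0.79 log2 below EGF 1, farther apart than EGF 1 and either ECCM array. The difference was 0.57 ± 0.19 (SE, n = 2; limma adjusted p = 0.0392), 0.17 without EGF replicate 2 (adjusted p = 0.19) and 0.96 without EGF replicate 1 (adjusted p = 0.0168).

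The same array was low for some other mitochondrial genes. Between the EGF arrays 8 of 73 mitochondrial genes differed by more than 0.3 log2, with EGF 2 the lower in 7 (Mrpl15, Mrpl22, Mrpl32, Mrpl34, Mrpl35, Mrps18b and Mrps28) and the higher in Mrps9, while no tested member differed that much between the ECCM arrays. Mrps28 measured 9.12 and 8.47 log2 in the EGF arrays against 9.28 and 9.15 log2 in the ECCM arrays, 0.42 ± 0.17 (limma adjusted p = 0.0813). Mrpl35 measured 9.60 and 9.10 log2 against 9.68 and 9.72 (0.35 ± 0.14; limma adjusted p = 0.0736). With EGF 2 as the lone EGF array, Mrpl22, Mrpl35, Mrps18b and Mrps28 passed the threshold under all 3 scalings, a call that takes EGF 2 to vary like the other arrays. Of the 46 cytosolic genes tested, only Rps13 differed by more than 0.3 between the EGF arrays. Gaps between these 2 arrays were not particular to the mitochondrial set. Their median was 0.08 log2 over the mitochondrial genes and 0.12 over all genes tested, and the share of all genes beyond 0.3 was not counted.

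Besides Mrpl22, 6 large subunit genes of the mitochondrial ribosome were called higher as quantile normalized, Mrpl3, Mrpl12, Mrpl16, Mrpl17, Mrpl52 and Mrpl54. With Mrpl22 this was 7 of 46 genes (15.2%), beside 16.5% of all genes. Mrpl17 measured 10.98 and 10.93 log2 in the EGF arrays against 11.30 and 11.24 log2 in the ECCM arrays. Its groups were well apart, by 0.32 ± 0.07 (SE, n = 2; limma adjusted p = 0.0051). The other 5 differed by 0.21 to 0.27 log2, among them Mrpl12, a stalk protein that also binds the mitochondrial RNA polymerase, at 0.21 with a limma adjusted p just under the threshold of 0.05. Mrpl4, Mrpl1 and Mrpl13 were the lowest of the large subunit at -0.24 ± 0.09, -0.21 ± 0.10 and -0.19 ± 0.07, with limma adjusted p of 0.0588, 0.13 and 0.0706. Mrpl58, a peptidyl-tRNA hydrolase built into the subunit, differed by -0.01 ± 0.09. The median over the 46 large subunit genes was 0.07 log2.

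In the mitochondrial small subunit 3 of 27 genes were called higher (11.1%) and 1 lower (3.70%) as quantile normalized, beside 16.5% and 14.6% of all genes. Mrps18b, one of 3 proteins of the Mrps18 family, measured 9.35 and 8.96 log2 in the EGF arrays against 9.59 and 9.67 log2 in the ECCM arrays, without overlap (0.47 ± 0.12; limma adjusted p = 0.0118). Without EGF replicate 2 the difference was 0.28 (adjusted p = 0.11). The related Mrps18a sits in the large subunit despite its symbol, by which it is counted among the 27 genes. It differed by -0.03 ± 0.08, and Mrps18c by -0.13 ± 0.10 (limma adjusted p = 0.38). The 3 members gave different values, although the differences between them were not tested.

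Mrps23 measured 10.00 and 9.87 log2 in the EGF arrays against 10.32 and 10.25 log2 in the ECCM arrays (0.35 ± 0.08; limma adjusted p = 0.0083). Mrps7, a protein of the subunit head, measured 9.49 and 9.51 log2 against 9.82 and 9.84 (0.33 ± 0.08; limma adjusted p = 0.0101). In both genes the ECCM arrays lay above the EGF arrays by more than the replicates differed. Mrps2 was the 1 member called lower, with 9.79 and 9.88 log2 in the EGF arrays against 9.53 and 9.56 log2 in the ECCM arrays. Its groups did not overlap (-0.29 ± 0.08; limma adjusted p = 0.0213), and a dimmer probe set of the gene gave -0.63, but one under the dim limit gave 0.12, and as deposited the difference was 0.04. Mrps24 had the smallest difference of the whole mitochondrial set, at 0.00 ± 0.08, and Mrps25 was also near 0, at 0.01 ± 0.09.

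**Figure D3:**
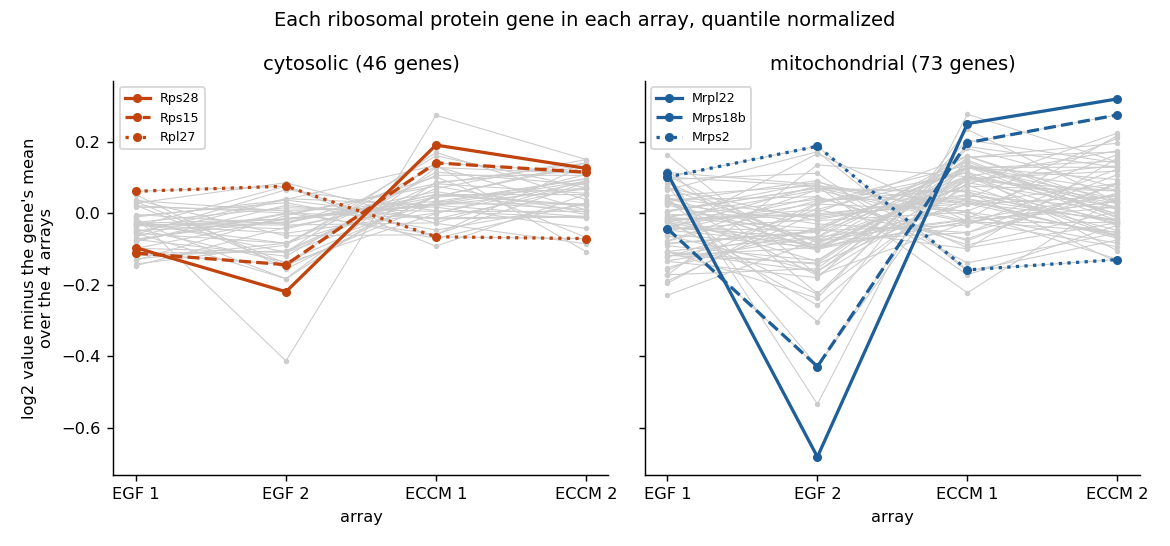
The quantile normalized log2 value of each gene minus its mean over the 4 arrays (vertical) in each array (horizontal), for 46 cytosolic (left) and 73 mitochondrial (right) genes, where a line joins the values of 1 gene and 3 genes per panel are coloured. In Mrpl22 and Mrps18b the array EGF 2 lies far below the other 3, while Rps28 and Rps15 have both EGF arrays below both ECCM arrays and Rpl27 and Mrps2 the reverse.

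The 2 sets kept the same distance in every array within the replicate spread. The median signal of the cytosolic genes minus that of the mitochondrial genes was 3.24 in both EGF arrays and 3.18 and 3.31 log2 in ECCM 1 and 2, so the ECCM arrays enclosed the EGF arrays. As deposited it was 3.25, 3.26, 3.16 and 3.32 log2, with the same order. This distance compares arrays, since signals of different probe sets do not measure the amounts of their transcripts on one scale. The arrays of a group also lay closer to each other than to those of the other group over both sets. The median absolute difference over cytosolic genes was 0.05 log2 between the EGF arrays and 0.06 between the ECCM arrays, and 0.09 to 0.14 between arrays of different groups. Over mitochondrial genes it was 0.08 and 0.09 within groups and 0.11 to 0.16 between them, and over all genes 0.12 and 0.10 within and 0.22 to 0.24 between.

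Most cytosolic genes lay at the top of the signal range, 38 of 46 above 12 log2, and Rps29 was the brightest of them (13.93, 13.72, 13.93 and 13.93 log2). The highest deposited value of an array was 13.85 log2 in EGF 1 and 14.12 log2 in ECCM 1. Whether the arrays resolve differences in transcript amount at such signals was not tested. Other genes between the quartiles of the cytosolic signal, 12.49 to 13.23 log2, numbered 88 and had a median difference of -0.03 and a standard deviation of 0.22 log2, where 9.09% were called higher and 22.7% lower as quantile normalized. Of these 88 genes, 2.27% rose and 1.14% fell. From percentile 10 to 90 of the cytosolic signal, 6.94 to 13.42 log2, where 8647 other genes lay, the standard deviation was 0.39 log2. Between the quartiles of the mitochondrial signal, 9.39 to 10.43 log2, the 2070 other genes had a standard deviation of 0.36 log2, and 7.15% of them rose and 2.22% fell. Beside these, the standard deviation was 0.11 log2 over the cytosolic and 0.17 over the mitochondrial genes.

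**Figure D4:**
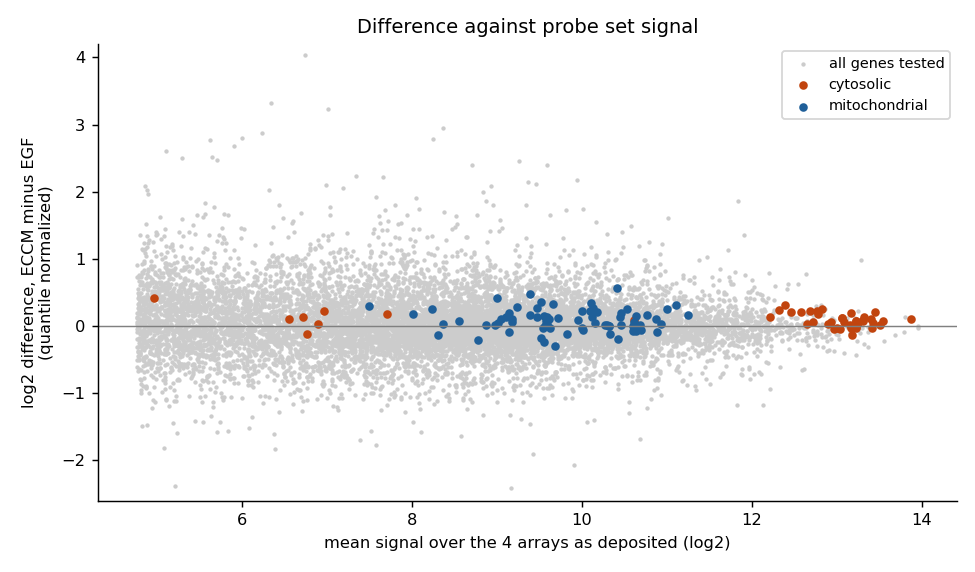
The log2 difference (ECCM minus EGF, quantile normalized, vertical) against the mean deposited signal over the 4 arrays (log2, horizontal) for all 11492 genes tested (grey), the cytosolic set and the mitochondrial set. The members lie close to 0 across the signal range, and 38 of the 46 cytosolic genes lie above 12 log2, where the grey points also spread least.

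Where a gene had several probe sets, they often gave different values. Of the 24 members with several, 21 had at least 2 above the dim limit, and in 9 of these the signs were mixed, but in none did they pass the threshold in opposite directions. The widest case was Mrpl37, with 0.13 in its brightest probe set and -0.77 and 0.27 in the dimmer ones. A further 36 probe sets list several symbols with a cytosolic ribosomal protein among them and were left out by the rule. Their median difference was 0.07 log2, from -0.19 to 0.38, and none rose or fell under all 3 scalings. As quantile normalized, 7 of the 36 were called higher and 1 lower, where 16.5% of all genes tested were called higher and 14.6% lower.

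The start motif was not tested against the differences, which are given here as a description. Cytosolic genes with a pyrimidine run within 5 bases of the start had a median difference of 0.12 log2 over 20 genes, and those without it 0.09 over 19. In the mitochondrial set the medians were 0.12 over 14 genes with it and 0.07 over 43 without. Among the genes shown above, the TOP starts of Rpl19 and Rplp0 stood beside differences of 0.05 and 0.03, those of Rps15 and Rpl22 beside 0.26 and 0.21, and Rpl18, with no run in the window, beside 0.19. For CCGGAAG the medians were 0.08 over 9 cytosolic genes with it and 0.11 over 30 without, and 0.05 over 19 mitochondrial genes with it and 0.12 over 38 without.

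Few genes of the other translation lists passed the test. Of 76 ribosome biogenesis genes and 14 genes of RNA polymerase I, which makes ribosomal RNA, none rose or fell, with medians of 0.08 and -0.04 log2 as quantile normalized. Of 44 genes of mitochondrial translation and 20 of mitochondrial biogenesis, again none rose or fell, with medians of -0.05 and -0.12. The mitochondrial translation list holds Tsc22d1, a transcription regulator and not a translation factor, which was 1 of its 3 genes called as quantile normalized (-0.37). Of 34 initiation factors and their regulators 1 rose, the regulator Eif4ebp1. Among 15 elongation genes and other TOP messenger RNAs 1 rose, the kinase Eef2k and not an elongation factor. In the list of 17 genes of mTORC1 and the S6 kinases 2 rose, the kinases Rps6ka3 and Rps6ka4. These counts stand against 9.12% of all genes, and no gene of these 3 lists fell. As quantile normalized, 5 of the 15 elongation and TOP genes were called higher (33.3%) and 1 lower (6.67%). The 5 included the elongation factors Eef1d, Eef1g and Eef2, which were not called median-centred. Of the 34 initiation genes 8 were called higher (23.5%) and 1 lower (2.94%). Of the 20 mitochondrial biogenesis genes these counts were 2 (10%) and 4 (20%), and of the 76 ribosome biogenesis genes 4 (5.26%) and 3 (3.95%). Of all genes 16.5% were called higher and 14.6% lower. Ribosomal proteins with other symbols were 0 of 7 in both directions, among them Rack1 of the cytosolic small subunit at 0.17 ± 0.06 (limma adjusted p = 0.0513) and Dap3 of the mitochondrial small subunit at -0.01. That list also holds Mterf4, an assembly factor, at -0.23.

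The 4 genes that rose act on translation or downstream of growth factor kinases. Eif4ebp1, which holds back the cap-binding factor until mTORC1 phosphorylates it, measured 7.82 and 8.18 log2 in the EGF arrays against 8.82 and 8.74 log2 in the ECCM arrays (0.77 ± 0.13; limma adjusted p = 9.36e-04). Eef2k, the kinase that slows elongation by phosphorylating Eef2, measured 6.15 and 6.04 log2 against 6.84 and 6.94 (0.80 ± 0.16; limma adjusted p = 0.0035), but the mean of its probe sets gave 0.38 (adjusted p = 0.18). Rps6ka3, a ribosomal S6 kinase of the ERK pathway, differed by 0.58 ± 0.10 (limma adjusted p = 0.0016). Rps6ka4, which acts mainly on chromatin and transcription factors, differed by 0.57 ± 0.16 (limma adjusted p = 0.0214), and by 0.09 over the mean of its probe sets. In all 4 genes the ECCM arrays lay above the EGF arrays. Eif4ebp1 and Rps6ka3 lost their calls without either ECCM array, Eef2k without EGF replicate 2 or either ECCM array, and Rps6ka4 without any 1 of the 4 arrays.

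**Figure D5:**
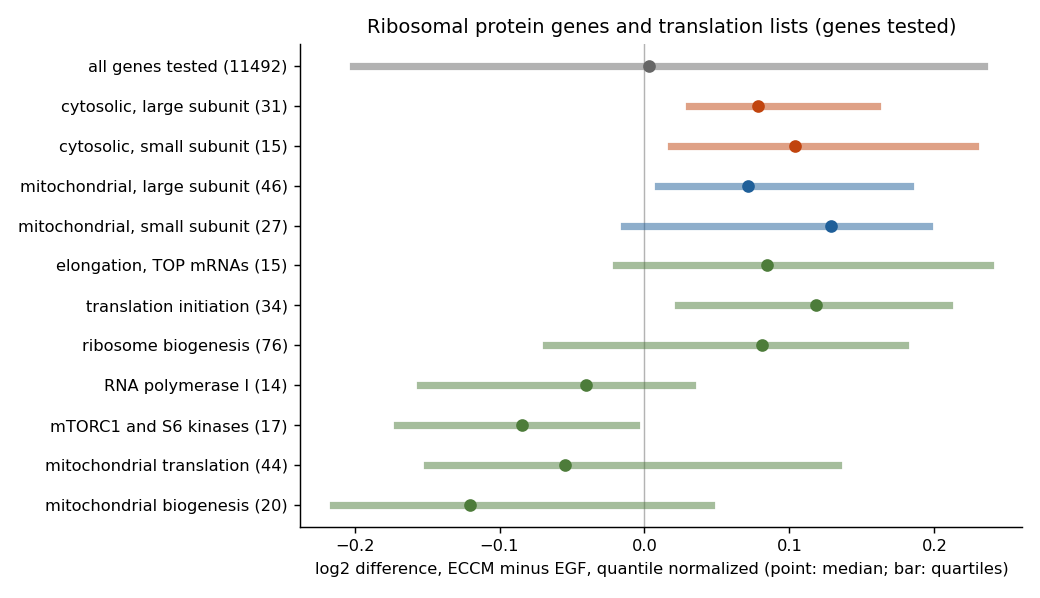
Median (point) and quartiles (bar) of the log2 difference (ECCM minus EGF, quantile normalized, horizontal) for all genes tested, the subunits of both ribosomes and the translation lists. The subunits are grouped by gene symbol, and the number of genes tested is in brackets. The medians of the 4 subunit groups lie between 0.07 and 0.13, and they would be negative median-centred, where the cytosolic median was -0.17.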

How the data were processed

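Total RNA of 4 samples was measured on Affymetrix rat arrays, whose probes lie toward the 3' end of a transcript. The deposited values are log2 signals that the authors obtained by RMA in GenePattern, per the labels. The version and normalization options are not given in the sources used here. Of 31099 probe sets, 57 of them array controls, 20832 had 1 symbol in the platform annotation, 436 several and 9831 none. The genes here have 1 symbol. Probe sets in the lowest 30% of mean signal were left out. Of the 123 members, 121 matched the RefSeq table (GRCr8) by identifier, 2 of them as pseudogenes. These were Rps4x-ps1, which was not tested, and Rpl37-ps2, which was tested (-0.11 log2 as quantile normalized). Rps9 and Rpl37a did not match.

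ECCM was compared with EGF by limma 3.58.1 in R 4.3.3 (lmFit, eBayes with an intensity trend, two-sided, no block) on quantile normalized values. The fit covered all genes, and p-values were Benjamini-Hochberg adjusted with a threshold of 0.05. As deposited, limma took the spread of every gene from the trend, with an infinite prior against 2 residual degrees of freedom. Standard errors are limma's. The scripts were checked on simulated data. Nothing in the labels shows how separate the samples of a pool were, so p-values measure the spread between these samples, and the number of arrays limits the precision.

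The members and lists were chosen with earlier results of these data known, as was quantile normalization as the main scaling. Named genes were to be, per set and direction, up to 8 with the largest difference past the threshold under all 3 scalings, the 3 smallest differences per set, the paralogs with their main forms, and up to 3 genes per list. No member met the first rule. The members called on quantile normalized values alone and the other members named, the size and spread limits, the signal ranges and CCGGAAG were chosen after their values were seen. The signal range was narrowed to the quartiles after percentile 10 to 90 had been tried.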

Additional observations from a re-analysis of the deposited data

How the results depend on the processing

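Scaling moved the most, as its construction implies. The cytosolic genes called higher numbered 33 as deposited and 0 median-centred, the mitochondrial ones 36 and 0, and the genes of the whole array 4643 and 1176. Called lower were 8 cytosolic and 17 mitochondrial genes median-centred, 0 mitochondrial as deposited, and 205 of all genes as deposited and 3704 median-centred. The set medians were 0.40 (cytosolic) and 0.42 (mitochondrial) as deposited, and -0.17 and -0.15 median-centred. Single genes whose sign turned median-centred were Mrpl12 (-0.0371), Mrpl52 (-0.0178), Rpl12 (-0.0598), Rpl13a (-0.0551), Rpl14 (-0.0227), Rpl18 (-0.0486), Rpl22 (-0.0498), Rpl26 (-0.10), Rpl4 (-0.0437), Rplp0 (-0.26), Rps15 (-0.0124), Rps23 (-0.33) and Rps3 (-0.0280). As deposited the sign turned for Mrps2 (0.0414) and Rpl37a (0.33), and with the mean of all probe sets for Rpl14 (-0.28). Sign changes of genes past the threshold in neither fit are not listed.

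Without the filter on dim probe sets 6 cytosolic genes were higher and 1 lower. Without the intensity trend 0 cytosolic and 1 mitochondrial gene (Mrps7) were higher, 0 mitochondrial lower, and 130 of all genes fell under all 3 scalings. With the mean of all probe sets 0 mitochondrial genes were lower. The cause of these moves was not tested.

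Same-numbered arrays did not deviate together (correlation -0.03 quantile normalized and -0.12 as deposited, 2 pairs), so whether the numbers mark shared pools is not known, and the block was kept out of the fit reported. With the replicate block the cytosolic calls were 10 higher and 0 lower and the mitochondrial ones 10 and 1. Among the latter, Mrpl12 and Mrpl52 lost their calls (adjusted p = 0.0726 and 0.0663, limma) and Mrpl32 and Mrps28 gained them (0.0392 and 0.0287). Under all 3 scalings 1 mitochondrial gene was then higher (Mrpl22), and 28 of all genes fell. The crossed block, added after seeing the data, gave 10 and 0 cytosolic, 15 and 2 mitochondrial, and 2136 and 1876 of all genes.

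Leaving out 1 array gave 0 to 4 cytosolic and 0 to 6 mitochondrial genes higher and 0 to 0 lower in both sets. Under all 3 scalings it gave 0 to 0 cytosolic genes, 0 to 4 mitochondrial genes higher and 0 to 0 lower. Over all genes it gave 557 to 1061 higher and 487 to 736 lower, and under all 3 scalings 506 to 850 higher and 43 to 103 lower. The set medians ranged from 0.07 to 0.11 (cytosolic) and from 0.07 to 0.10 (mitochondrial). A lone array of a group is assumed to vary like the others.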
